A study of Homo sapiens with 6 samples.

Results

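The unfolded protein response and the integrated stress response were described through 32 genes, taken by gene name from the 32917 rows of the expression table and from both tables of methylation peaks. All 32 had a row and at least 1 listed peak. The cells were Kasumi-1, a human line established from acute myeloid leukaemia and labelled as wild type. Every library analysed here came from cells given both 100 uM CoCl2, a hypoxia mimic that stabilises HIF-1, and 10 nM echinomycin, a DNA binder that blocks HIF-1, for 24 hours. The 6 libraries were 3 inputs of fragmented poly(A) RNA and 3 immunoprecipitates (IP) of the same kind of RNA with an antibody against N6-methyladenosine (m6A), from 3 biological replicates. Cells with CoCl2 alone enter only through the authors' own comparison of peaks, and their libraries were not used here. All results are from 1 cell line.

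The unfolded protein response is started by 3 kinds of sensor in the membrane of the endoplasmic reticulum (ER): the nuclease IRE1 (ERN1), the protease-activated factor ATF6 and the kinase PERK (EIF2AK3). PERK shares its substrate, the translation factor eIF2 alpha, with the kinases of the integrated stress response, which answer haem shortage, double-stranded RNA and amino acid shortage. Phosphorylated eIF2 alpha lowers translation at large but raises that of ATF4, whose messenger carries upstream reading frames. ATF4 and its partner CHOP (DDIT3) then drive amino acid supply, feedback and cell death genes, while ATF6 and spliced XBP1 drive chaperones and ER-associated degradation. m6A is a methyl mark on messenger RNA that can alter splicing, decay and translation.

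The libraries matched the labelled cell type in most markers. Of 7 myeloblast markers 6 were at 1 FPKM (fragments scaled by transcript length and library size) or more, with ELANE listed at 0, 0 and 0.0554 FPKM. The summed level of 7 myeloblast markers ran from 114.9 to 126.3 FPKM over the 3 inputs. Summed lymphoid markers ran from 30.6 to 35.6 FPKM and epithelial markers from 8.99 to 9.76 FPKM, in each case with 1 gene at 1 FPKM or more. The 1 erythroid and 1 fibroblast marker that had a row stayed under 1 FPKM in all 3 inputs, with highest values of 0.220 and 0.714 FPKM. Their part in the levels given here was not tested. Log2 levels of expressed genes correlated between 0.986 and 0.988 (Pearson, across 12612 genes, which are not independent replicates) in the 3 pairs of inputs. FPKM gives no read depth, so the counting error behind each level is unknown.

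In cells given both agents the stress response genes stood among the abundant transcripts, with several chaperones, ATF4 and the phosphatase subunit PPP1R15A at the top and NUPR1, CHAC1 and ASNS at the bottom. A mean input level of 1 FPKM or more was reached by 30 of the 32 genes, and 27 lay above 5.36 FPKM, the median of all 12612 expressed genes. Their median was 14.2 FPKM, against 0.338 FPKM over all genes of the table. On the scale of log2(FPKM + 1) these medians were 3.92 and 0.42. The coefficient of variation over the 3 inputs had a median of 3.95% among the 30 expressed genes, against 6.06% over all expressed genes. These 30 also had a higher median level, 15.6 against 5.36 FPKM, and the part of level in this difference was not tested. FPKM is a level per length, so genes can be set side by side, but the 3 values show the spread between libraries only. Errors of FPKM that differ from gene to gene are not in that spread. The order of mean levels is uncertain where the 3 values of neighbours overlap. This was so for 9 of the 31 pairs of neighbours, and the same count was not made over all genes. The overlapping pairs were PDIA6 with PPP1R15B, ATF5 with HYOU1, DNAJC3 with SEL1L, SESN2 with CEBPG, ATF6 with EIF2AK2, and the run of EIF2AK3, HERPUD1, ERN1, DNAJB9 and VLDLR.

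**Figure D1:**
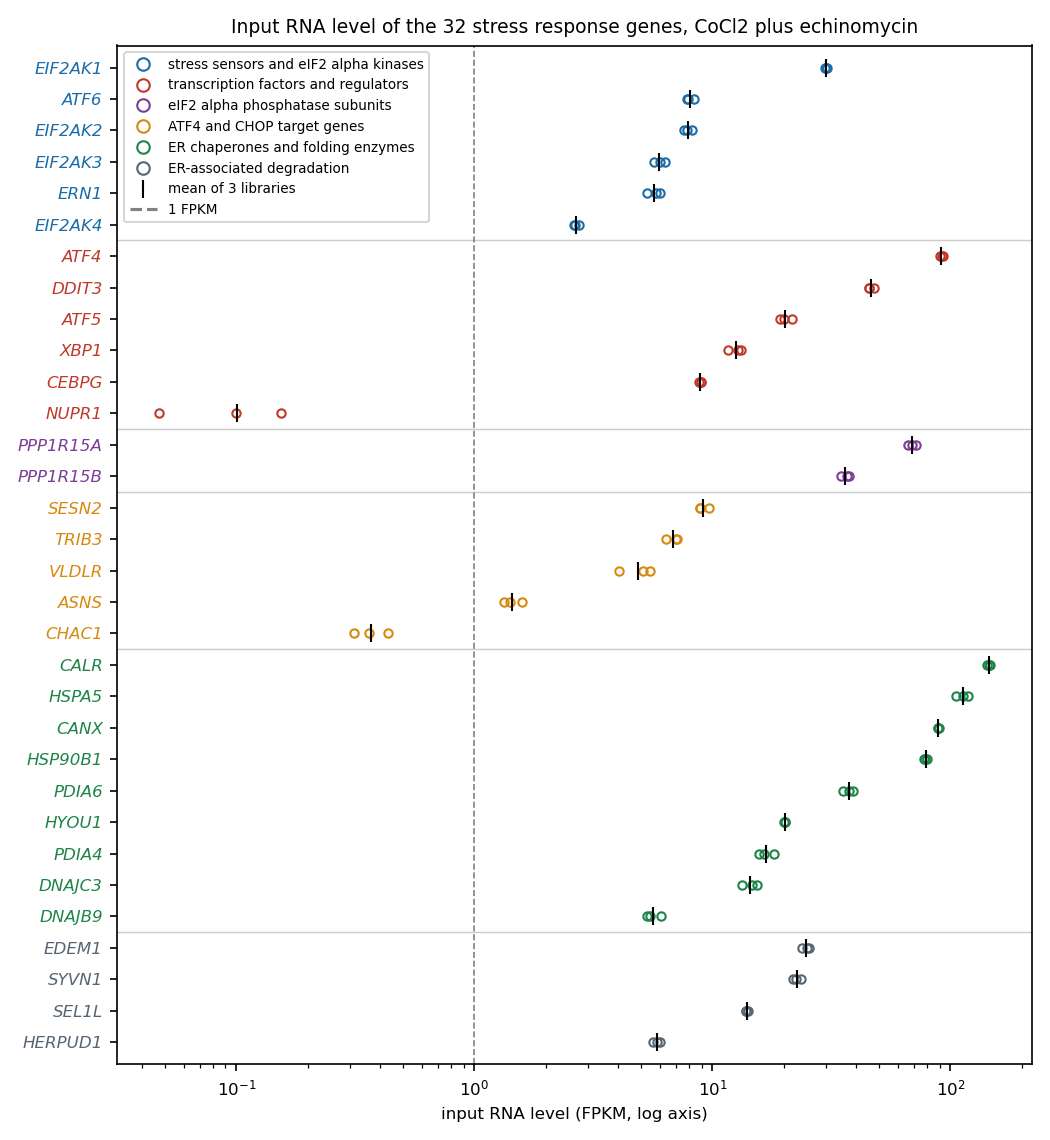
Input level of each of the 32 genes in FPKM on a log axis; each open circle is 1 of 3 input libraries, the bar is their mean, colours mark the role and the dashed line is 1 FPKM. CALR is the highest at 145 FPKM, and CHAC1 and NUPR1 alone lie below the line.

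Among the sensors and kinases, EIF2AK1, the haem-regulated kinase, stood apart. Its input levels were 29.9, 29.7 and 30.4 FPKM, while EIF2AK4, the kinase that senses uncharged tRNA, had 2.75, 2.63 and 2.65 FPKM. These are the highest and the lowest of the 6 genes of this role, and EIF2AK1 was 11.2 times EIF2AK4 (10.9 to 11.5 over the libraries). The other kinase genes were EIF2AK2, the kinase of double-stranded RNA, at 7.87 ± 0.313 FPKM (SD, n = 3) and EIF2AK3 at 5.99 ± 0.315 FPKM (SD, n = 3). ATF6 had 8.04 ± 0.271 FPKM (SD, n = 3) and ERN1 5.71 ± 0.352 FPKM (SD, n = 3). These 4 lay within a narrow band, between the other pair.

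The transcription factors covered a wide range. ATF4 had 91.8, 90.2 and 92.8 FPKM, which was 4.54 times its relative ATF5 (4.18 to 4.78 over the libraries). DDIT3, which encodes CHOP, followed at 45.4, 45.7 and 47.9 FPKM. XBP1, the factor made active by IRE1 splicing, had 13.2, 11.6 and 12.8 FPKM, and CEBPG, a dimer partner of ATF4, 8.79, 8.99 and 8.92 FPKM. NUPR1, a small stress-inducible chromatin protein, was at 0.154, 0.10 and 0.0473 FPKM, and no library reached the expression limit. Both subunits that bring protein phosphatase 1 to eIF2 alpha were abundant. The stress-induced PPP1R15A (GADD34) had 71.6, 66.1 and 68.7 FPKM and the constitutive PPP1R15B 36.6, 37.4 and 34.6 FPKM, a ratio of 1.90 (1.77 to 1.99).

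The 5 members grouped as ATF4 and CHOP targets lay between 0.368 and 9.15 FPKM, below both factors, while other genes induced by ATF4 reached higher levels, as DDIT4 and TARS1 below show. SESN2, an inhibitor of mTORC1 signalling, had 9.66, 8.87 and 8.91 FPKM, and TRIB3, a pseudokinase that binds ATF4 and CHOP, 6.39, 7.13 and 7.06 FPKM. VLDLR, a lipoprotein receptor, had 5.46, 4.07 and 5.13 FPKM, with a coefficient of variation of 14.9%, the highest of the 30 expressed genes. ASNS, asparagine synthetase, had 1.41, 1.59 and 1.34 FPKM, and CHAC1, which degrades glutathione, 0.313, 0.433 and 0.360 FPKM. All 3 values of ASNS lay below those of the other expressed members. ATF4 was 63.8 times ASNS (56.9 to 69.4 over the libraries) and DDIT3 128 times CHAC1 (106 to 145).

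The 9 chaperone and folding genes had a median of 37.3 FPKM. CALR, a lectin chaperone, was at 147, 145 and 142 FPKM, HSPA5 (BiP), the main HSP70 of the ER, at 113, 106 and 119 FPKM. Its co-chaperone genes were lower, with DNAJC3 at 14.4 ± 1.09 FPKM (SD, n = 3) and DNAJB9 at 5.64 ± 0.400 FPKM (SD, n = 3). CANX, the membrane-bound lectin chaperone, had 88.9, 88.3 and 89.9 FPKM, and HSP90B1 (GRP94) 77.5, 78.5 and 79.8 FPKM. The disulfide isomerase genes had 37.3 ± 1.82 FPKM for PDIA6 and 16.8 ± 1.28 FPKM for PDIA4 (SD, n = 3), and HYOU1, an exchange factor for BiP, 20.1 ± 0.156 FPKM (SD, n = 3). In ER-associated degradation, EDEM1, which selects glycoproteins, had 24.7 ± 0.876 FPKM (SD, n = 3) and the ubiquitin ligase SYVN1 (HRD1) 22.6 ± 0.792 FPKM (SD, n = 3). SEL1L, the partner of SYVN1, was at 13.9 ± 0.180 FPKM (SD, n = 3), and HERPUD1, which organises that complex, at 5.83 ± 0.212 FPKM (SD, n = 3).

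The same promoter element was held by 5 of the 9 chaperone genes and by XBP1. The list holds known genes of a response driven by ATF6, XBP1 and ATF4, so matches to their elements are not independent of this choice. RefSeq promoter sequences of build GRCh38.p14, from 250 bases before to 50 bases after a start, were matched by symbol for 30 of the 32 genes. They were searched on both strands for the ER stress response element ERSE (CCAAT, then 9 bases of any kind, then CCACG), bound by ATF6 together with NF-Y. It was found in 6 of the 30 genes, against 25 of 27305 genes with a promoter sequence (0.0916%; 0.0769% of all 35116 promoters, since a gene can have several). The matches are shown because they mark which members carry the element, with the motif in capitals, written 5′ to 3′ on the strand of the gene. CALR and the match of HSP90B1 nearer to its start hold the element on the opposite strand.

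HSPA5 (chr9:125241386-125241414, minus strand): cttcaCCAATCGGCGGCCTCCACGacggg

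CALR (chr19:12938379-12938407, plus strand): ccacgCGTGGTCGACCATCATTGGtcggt

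HSP90B1 (chr12:103930211-103930239, plus strand): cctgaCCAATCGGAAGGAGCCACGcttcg

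HSP90B1 (chr12:103930316-103930344, plus strand): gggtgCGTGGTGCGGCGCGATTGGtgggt

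CANX (chr5:179698773-179698801, plus strand): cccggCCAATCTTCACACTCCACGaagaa

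PDIA6 (chr2:10812848-10812876, minus strand): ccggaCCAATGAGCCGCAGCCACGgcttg

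XBP1 (chr22:28800598-28800626, minus strand): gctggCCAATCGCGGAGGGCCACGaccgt

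The related element ERSE-II (ATTGG, then 1 base of any kind, then CCACG) was in the promoters of HERPUD1 and HYOU1, against 0.0696% of all genes and 0.0541% of all promoters. The chaperone genes DNAJB9, DNAJC3 and PDIA4 held neither element in the window searched. HERPUD1 had it once, and HYOU1 held it in 2 places on the opposite strand, the nearer of which is shown.

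HERPUD1 (chr16:56932020-56932040, plus strand): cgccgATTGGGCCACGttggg

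HYOU1 (chr11:119057269-119057289, minus strand): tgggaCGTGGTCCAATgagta

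The core of the element bound by ATF4 with C/EBP partners (TGATGNAA, named CARE) is short and was in 4.46% of all genes and 3.62% of all promoters. It was in 5 members, ASNS, CEBPG, CHAC1, HERPUD1 and PPP1R15B, and the windows of ASNS, CEBPG and CHAC1 are shown, with the match of CHAC1 on the opposite strand.

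ASNS (chr7:97872464-97872481, minus strand): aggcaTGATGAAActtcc

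CEBPG (chr19:33374066-33374083, plus strand): gcgtcTGATGCAAcctgc

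CHAC1 (chr15:40953257-40953274, plus strand): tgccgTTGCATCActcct

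The XBP1-bound element UPRE (TGACGTGG) was in HYOU1, where it overlaps the farther ERSE-II match, against 0.927% of all genes and 0.729% of all promoters. The 8 genes with ERSE or ERSE-II had a median input level of 58.0 FPKM, from 5.83 for HERPUD1 to 145 for CALR. The 22 genes with a promoter sequence but neither element had a median of 9.02 FPKM, from 0.368 for CHAC1 to 91.6 for ATF4. The 2 ranges overlap widely. A match is only a description of the letters in the window, and no binding was measured.

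Messengers of the 32 genes carried m6A peaks in every role. All 30 expressed genes had a listed peak (exact Clopper-Pearson 95% interval 88.4% to 100%, counting error only), against 79.7% of all expressed genes, and all 30 had one at an authors' FDR under 0.05, against 78.7%. Since 27 of the 30 lay above the median level of expressed genes, their level differs from that of the background, and its part in this count was not tested. The 32 genes had 75 peaks in all, of which 67 passed that FDR (89.3%, against 87.4% of all 42618 listed peaks). Fold enrichment compares IP with input and is, throughout, the value the authors gave each peak, with no replicate error. It had a median of 4.16 in the 75 peaks and 4.53 in all peaks. By label, 3′ UTRs held 44 peaks (58.7%), 5′ UTRs 21 (28.0%) and other exons 10 (13.3%). Over all listed peaks these shares were 42.5%, 23.1% and 34.4%. The labels do not always match the position in the gene. An EIF2AK4 peak labelled 3′ UTR, at chr15:39973911-39974031, lies between peaks labelled exon 9 of 39 and exon 12 of 39. Regions are given by label throughout. Peaks in 3′ UTRs alone were listed for 15 genes, in 5′ UTRs alone for 3, and in both for 12. The peaks are not independent, since 16 of the 75 share bases with another entry of the same gene. A further limit is that 23 lie over another RefSeq gene, and the tables give no strand of a peak. Coordinates are of build GRCh38.

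**Figure D2:**
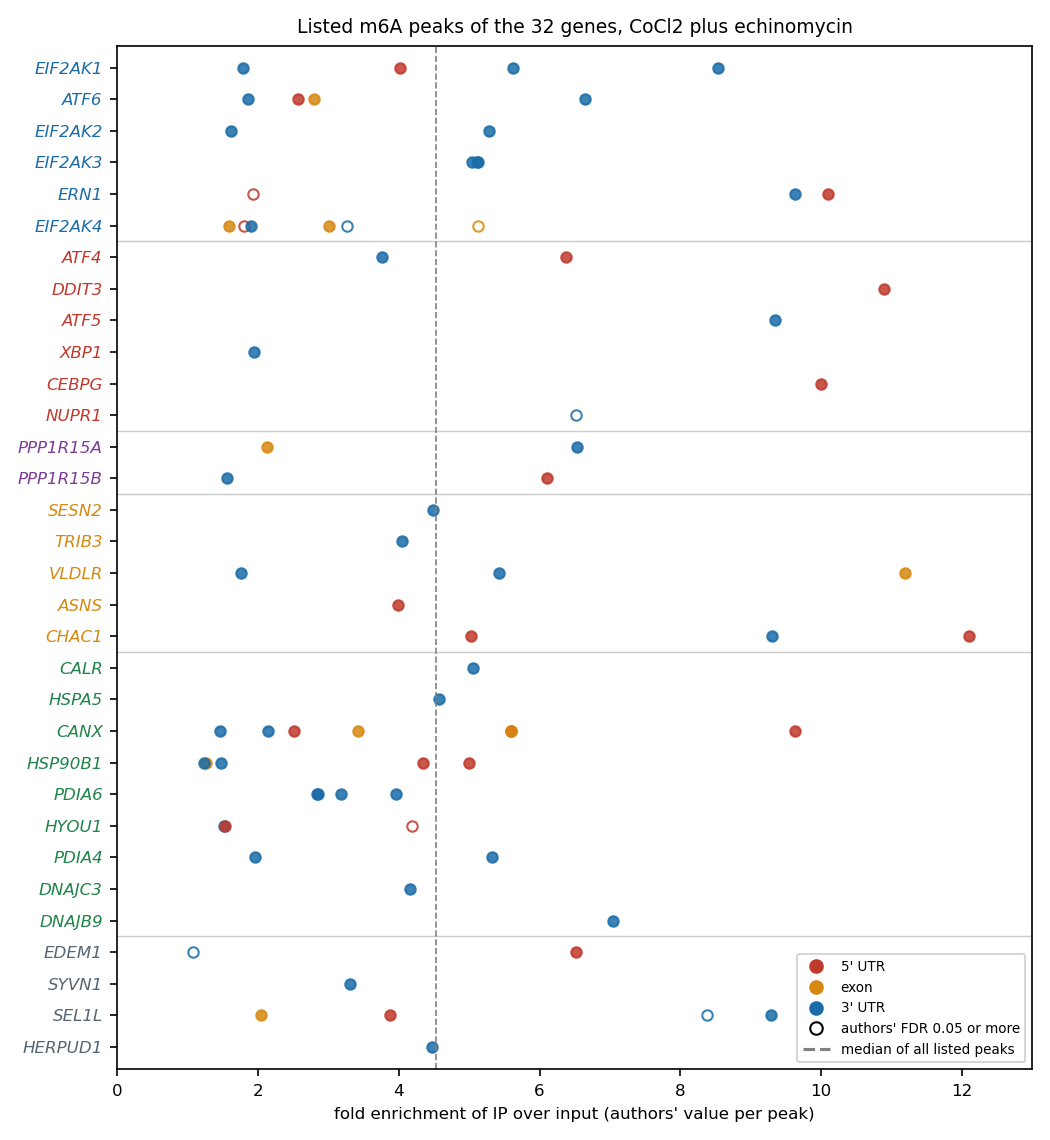
Fold enrichment of IP over input for each of the 75 listed peaks, by gene and coloured by region; filled points passed an authors' FDR of 0.05, and the dashed line is the median of all listed peaks, 4.53. The points of a gene are often far apart, from 1.23 to 5.00 in HSP90B1 and from 1.46 to 9.63 in CANX.

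The 22 peaks of the sensors and kinases had a median fold enrichment of 3.64, below that of all peaks, and the 7 of the transcription factors one of 6.52. ERN1 had a 5′ UTR peak with a fold enrichment of 10.1 at chr17:64128752-64130070 and a 3′ UTR peak of 9.63 at chr17:64043309-64045449. EIF2AK1 reached 8.54 in a 3′ UTR peak that lies over the neighbouring gene AIMP2, and 4.02 in its 5′ UTR. ATF6 reached 6.65 in its 3′ UTR, and EIF2AK3 5.13 in a peak over the RefSeq gene EIF2AK3-AS1. The 6 peaks of EIF2AK4 ran from 1.58 to 5.12, and 3 of them missed the FDR of 0.05. CEBPG had its 1 peak at 10.0 over 1104 exonic bases, and ATF5 a 3′ UTR peak of 9.34 at chr19:49933518-49933935. XBP1 had 1 peak of 1.94 in the 3′ UTR at chr22:28795094-28795694, at percentile 11.8 of all listed peaks. NUPR1 had a peak of 6.52 that missed the FDR, at a gene below the expression limit.

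ATF4 had 2 peaks. The one in the 5′ UTR, at chr22:39519672-39520533, had a fold enrichment of 6.38, and the one in the 3′ UTR, at chr22:39522297-39522683, had 3.76. The 5′ UTR peak covered 862 bases, beginning at the start of the gene in the expression table. RefSeq places its ATF4 starts later, and the peak ended 26 bases before the first of them. The single DDIT3 peak, of 10.9 in the 5′ UTR at chr12:57521720-57521929, lay outside the gene's row of the expression table for 192 of its 210 bases and over the neighbouring gene MBD6. In the same way the 5′ UTR peak of EDEM1, of 6.52, lay outside the gene's row for 474 of 475 bases, and its other peak, of 1.08, missed the FDR. Without peaks mostly outside their gene's row and with the authors' FDR under 0.05, 28 of the 30 expressed genes kept a listed peak.

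PPP1R15B had a 5′ UTR peak of 6.11 whose 3257 exonic bases reach far beyond a leader, and PPP1R15A a 3′ UTR peak of 6.53 beside one of 2.12 in exon 2 of 3. Among ATF4 and CHOP targets, CHAC1 had the highest value of the 75 peaks, 12.1 in its 5′ UTR at chr15:40952962-40953526, with a log10 FDR of -2.18 at a gene of 0.368 FPKM. That peak spans 565 bases from the start of the gene's row, and the nearest RefSeq start lies 509 bases into it. Most of the peak thus lies before that RefSeq start, and the CARE window of CHAC1 shown above lies inside the peak. VLDLR reached 11.2 in an exon peak at chr9:2652886-2653539, sharing bases with a 3′ UTR entry of 1.75. All listed VLDLR peaks lie over another RefSeq gene, LOC105375957. SESN2 had 4.49 and TRIB3 4.04, each in the 3′ UTR, and ASNS 3.99 in the 5′ UTR.

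Peaks of the chaperone genes had a median of 3.42, the lowest of the 6 roles. HSPA5 had 1 peak, 4.57 in the 3′ UTR at chr9:125236200-125237008, and CALR 1 peak of 5.06 in the 3′ UTR at chr19:12943512-12944489. Both lay near the median of all peaks. HSP90B1 had 5.00 in its 5′ UTR and 1.23 to 1.47 in 3 other places. DNAJB9 had 7.05 and DNAJC3 4.16 in the 3′ UTR, PDIA4 up to 5.32, PDIA6 2.83 to 3.96, and HYOU1 1.51 to 4.19. SEL1L reached 9.29 in a 3′ UTR peak at chr14:81475949-81479452, with HERPUD1 at 4.47 and SYVN1 at 3.31 in the 3′ UTR.

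With echinomycin added to CoCl2, m6A peaks of the pathway changed in both directions. Among the 32 genes, the authors' deposited table gave its highest changed values as a log2 fold change of 1.36 in the 5′ UTR of ATF4, 1.27 in an exon of VLDLR and 1.22 in the 5′ UTR of EIF2AK1. At the other end, the authors' deposited table gave -1.30 for NUPR1, -1.14 in the 5′ UTR of CANX, -1.10 for DNAJC3 and -1.08 for TRIB3. The ATF4 peak lies mostly, and the CANX peak at -1.14 wholly, before the first RefSeq start of its gene. The VLDLR peak lies over another RefSeq gene, LOC105375957. Read by the order of the groups in the table's name, a positive value stands for more m6A enrichment with both agents than with CoCl2; no label states this direction. The table holds 1 value per peak with no replicate values, and the sources used here do not say if its FDR reflects replicate spread. The enrichment is of bulk RNA, so a change in every cell and a change in some cells cannot be told apart. RNA levels were not compared with CoCl2 alone.

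The authors' deposited table tested 43 peaks in 27 of the 32 genes, and ASNS, ATF5, DDIT3, EDEM1 and EIF2AK2 had none. At an authors' FDR under 0.05, 36 of the 43 peaks of the authors' deposited table changed, against 68.9% of all 19979 tested peaks. Of these 17 were higher and 19 lower, against 23.1% higher and 45.8% lower over all peaks of the authors' deposited table. The median log2 fold change of the authors' deposited table was -0.28 in the 43 peaks and -0.43 in all. At least 2-fold changes among those called made up 7 of the 43 in the authors' deposited table, against 17.2% of all. With each gene taken at its peak of lowest authors' p, 26 of the 27 genes changed in the authors' deposited table, against 75.9% of all 11126 tested genes. Of these, 11 were higher and 15 lower in the authors' deposited table, against 22.8% and 53.1% of all tested genes, and PDIA4 was not called. The medians of the authors' deposited table were -0.34 over the 27 genes and -0.50 over all tested genes. Since small changes pass this FDR, as the 0.077 of CALR in the authors' deposited table shows, passing it says little about size. The input levels of the 32 genes differ from those of the background, and the part of level in these counts was not tested.

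**Figure D3:**
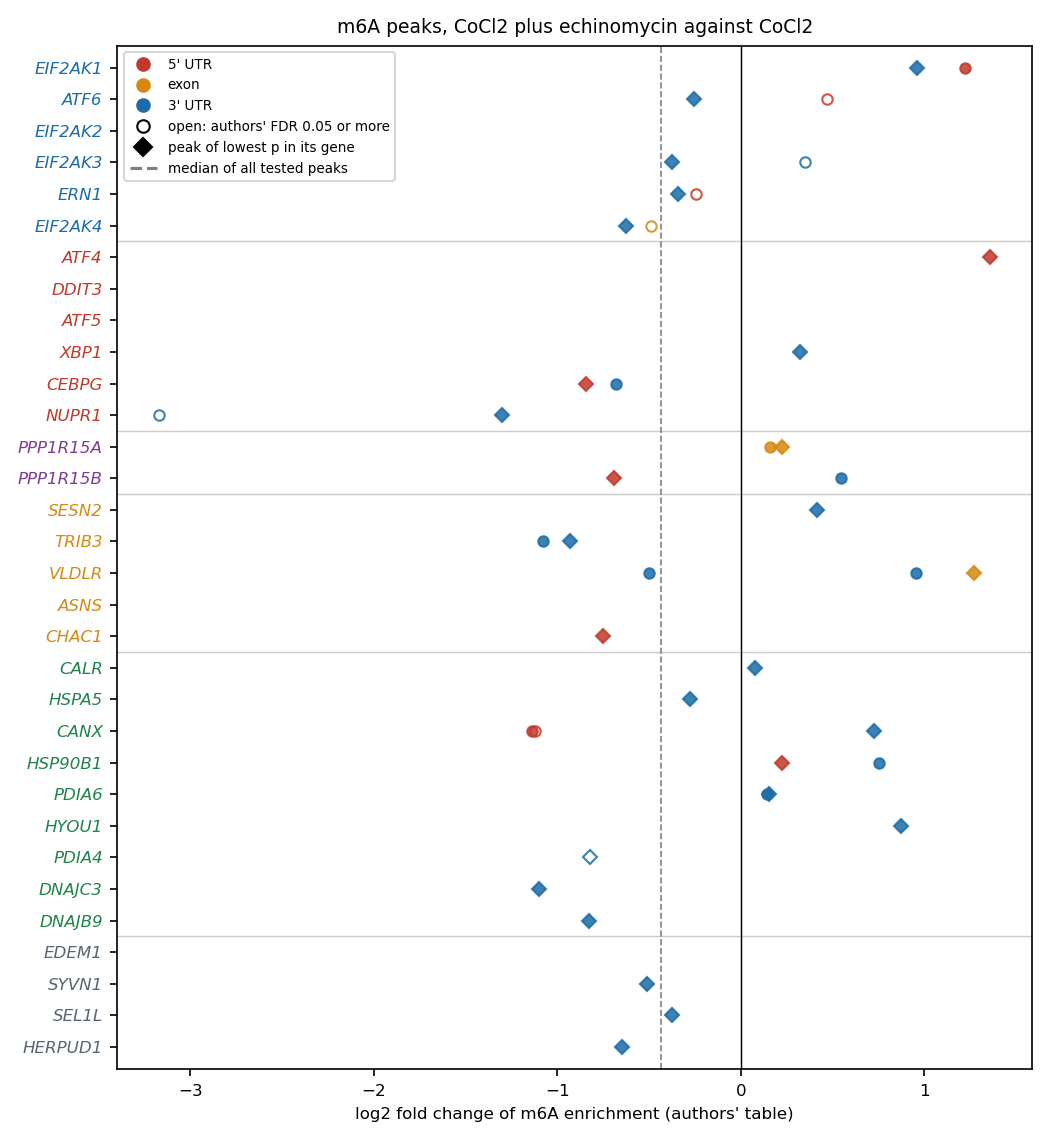
Log2 fold change of m6A enrichment, both agents against CoCl2, for the 43 tested peaks of the authors' deposited table by gene; colours mark the region, diamonds the peak of lowest p in its gene, and open points missed the FDR of 0.05. ATF4 lies at 1.36 and DNAJC3 at -1.10, and the dashed line is the median of all tested peaks, -0.43.

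Among the kinases and sensors 1 of 5 tested genes was higher and 4 were lower in the authors' deposited table, beside 22.8% and 53.1% of all tested genes. EIF2AK1 was higher at both of its tested peaks, by 1.22 in the 5′ UTR at chr7:6058966-6059175 and by 0.96 at chr7:6024664-6026506 in the authors' deposited table. The entry at 0.96 overlaps a listed peak with a fold enrichment of 1.78. The listed 3′ UTR peaks of EIF2AK1 at 8.54 and 5.62 were not among those tested. The lower genes of the authors' deposited table were EIF2AK4 at -0.63, EIF2AK3 at -0.37, ERN1 at -0.34 and ATF6 at -0.25, each at a peak labelled 3′ UTR. Second peaks of these 4 genes missed the FDR, with -0.49 for EIF2AK4, 0.35 for EIF2AK3, -0.24 for ERN1 and 0.47 for ATF6 in the authors' deposited table. The tested EIF2AK3 peaks lie over EIF2AK3-AS1. The authors' values for ERN1, ATF6 and EIF2AK3 were thus small at every tested peak, while both values of EIF2AK1 were larger.

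ATF4, the effector of these kinases, was 2.57-fold higher in its 5′ UTR peak of the authors' deposited table, at chr22:39519672-39520563, with a log10 FDR of -22.1. It starts at the same base as the 5′ UTR peak of the peak list and ends slightly later, just past the first RefSeq start. That start lies 887 bases after the beginning of the gene's row, so most of the 892 bases of this peak lie before it. The 3′ UTR peak of ATF4 was not among those tested. XBP1 was higher by 0.32 in the authors' deposited table. CEBPG was lower at both of its peaks, by the authors' deposited table, at -0.85 (log10 FDR -61.9) and -0.68. NUPR1 had -1.30 at 1 peak and -3.17 at another that missed the FDR in the authors' deposited table, and neither overlapped a listed peak of this gene at 0.101 ± 0.0534 FPKM (SD, n = 3).

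The phosphatase subunits moved by small amounts or in both directions. PPP1R15A was higher by 0.16 and 0.22 at 2 peaks in exon 2 in the authors' deposited table. PPP1R15B was lower by -0.69 at its long 5′ UTR peak, at chr1:204405771-204411817 (log10 FDR -206), and higher by 0.54 in the 3′ UTR, at chr1:204403710-204403949 (log10 FDR -6.58), in the authors' deposited table. Of the ATF4 and CHOP targets, TRIB3 was lower at both 3′ UTR peaks of the authors' deposited table, at -0.93 (chr20:396239-397229, log10 FDR -56.6) and -1.08. CHAC1 was lower at -0.75 in the authors' deposited table, with a log10 FDR of -1.73, at an entry that does not include its 5′ UTR peak of 12.1. That entry is labelled 5′ UTR but ends where the gene's row ends. SESN2 was higher by 0.41 in the authors' deposited table. VLDLR was higher by 1.27 and 0.95 at 2 overlapping entries, near chr9:2652904-2653877, and lower by -0.50 in the 3′ UTR at chr9:2654957-2656007 of the authors' deposited table. All of these VLDLR entries lie over LOC105375957.

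Of the 9 chaperone genes 5 were higher and 3 lower in the authors' deposited table, beside 22.8% and 53.1% of all tested genes. Those higher were HYOU1 at 0.87, CANX at 0.73, HSP90B1 at 0.23, PDIA6 at 0.15 and CALR at 0.077 in the authors' deposited table. HSP90B1 was also higher by 0.75 (log10 FDR -3.12) at a 3′ UTR entry over the gene UQCC6 in the authors' deposited table. The lower ones were DNAJC3 at -1.10 (log10 FDR -63.3), DNAJB9 at -0.83 (log10 FDR -14.4) and HSPA5 at -0.28 (log10 FDR -41.0) in the authors' deposited table. DNAJC3 and DNAJB9 encode J-domain partners of HSPA5. PDIA4 had -0.82 and missed the FDR in the authors' deposited table. Listed peaks at the places where genes were higher had fold enrichments of 1.51 for HYOU1 and 1.46 for CANX. The others had 5.00 for the 5′ UTR and 1.47 for the 3′ UTR entry of HSP90B1, 5.06 for CALR, and 2.83 and 2.85 for overlapping entries of PDIA6. CANX was lower by -1.14 in its 5′ UTR, at chr5:179678560-179680974, and higher in the 3′ UTR, at chr5:179724769-179728675, in the authors' deposited table, so its direction depends on the peak taken. The tested 5′ UTR peaks of CANX lie over the neighbouring gene CBY3, and the 3′ UTR peaks of PDIA6 over ATP6V1C2. The CANX peak at -1.14 ends 17453 bases before the first RefSeq start of its gene. All 3 tested genes of ER-associated degradation were lower, HERPUD1 at -0.65, SYVN1 at -0.51 and SEL1L at -0.38 in the authors' deposited table, against a median of -0.50 over all tested genes.

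Set beside the promoter elements shown above, 6 of the 8 genes with ERSE or ERSE-II were higher and 2, HSPA5 and HERPUD1, lower in the authors' deposited table, beside 22.8% and 53.1% of all tested genes. The 6 include CALR and PDIA6, at 0.077 and 0.15, and CANX, which has -1.14 at another peak in the authors' deposited table. Among 17 tested genes with a promoter sequence but neither element, 4 were higher and 12 lower in the authors' deposited table. All 4 tested genes with the CARE core, CEBPG, CHAC1, HERPUD1 and PPP1R15B, were lower at their peak of lowest p in the authors' deposited table. HERPUD1 counts on both sides. PPP1R15B was higher by 0.54 at its 3′ UTR peak, and CHAC1 lay under the expression limit at 0.368 FPKM. These elements were looked up with the fold changes known, and no test was made.

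Other genes of the pathway, 106 in 7 lists, were read in the same way, and 99 of them were expressed. A listed peak was present for 77 of these 99, beside 79.7% of all expressed genes. Of 68 genes tested, 29 were higher and 32 lower at their peak of lowest p in the authors' deposited table. The counts of each list below stand beside the same background of 22.8% higher and 53.1% lower, and no test of a list was made. A list of genes induced by ATF4, mostly of amino acid supply and one-carbon metabolism, had 9 of 10 tested genes lower, with a median of -0.62 in the authors' deposited table. The 9 include the transcription factor gene ATF3, the mTORC1 inhibitor gene DDIT4 and STC2, which encodes a secreted glycoprotein, none of which belongs to amino acid supply. The lowest was SLC7A11, the cystine transporter, at -1.48 and a level of 0.985 FPKM, under the expression limit, and the only higher one ALDH1L2, a mitochondrial folate enzyme, at 0.95 in the authors' deposited table. DDIT4 was the most abundant of that list at 83.0 ± 3.71 FPKM (SD, n = 3), with -0.66 in the authors' deposited table. Aminoacyl-tRNA synthetases had 6 of 9 tested genes higher and 2 lower in the authors' deposited table, from MARS1 at 1.33 to SARS1 at -0.93, and TARS1 was the most abundant at 59.4 ± 0.614 FPKM (SD, n = 3).

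Subunits of eIF2 and its exchange factor eIF2B were split 3 and 3 in the authors' deposited table, with EIF2B4 at 2.75 and EIF2B1 at -1.07. Further folding and oxidation genes had 6 of 11 higher and 4 lower in the authors' deposited table, with the oxidase gene ERO1A at 1.0 and SIL1, an exchange factor for BiP, at -1.03. P4HB, a disulfide isomerase, was the most abundant of them at 161 ± 0.794 FPKM (SD, n = 3). Translocation and export genes had 3 of 5 higher and 2 lower in the authors' deposited table, with the signal peptidase subunit SPCS3 at 0.79 and the translocon subunit SEC61A1 at -0.79. Further genes of ER-associated degradation had 6 of 16 higher and 8 lower in the authors' deposited table, with NPLOC4, a cofactor of VCP, at 1.75 and DERL2, a retrotranslocation factor, at -1.08. In that list OS9, a lectin, was the most abundant at 95.5 ± 2.66 FPKM (SD, n = 3). Signal relay genes had 4 of 11 higher and 4 lower in the authors' deposited table, with the NF-Y subunit NFYC at 1.5 and the mitochondrial protease OMA1, at a level of 0.973 FPKM, at -0.73. RTCB, the ligase that joins XBP1 messenger after IRE1 cleavage, was the most abundant of the relay genes at 27.8 ± 0.265 FPKM (SD, n = 3).

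**Figure D4:**
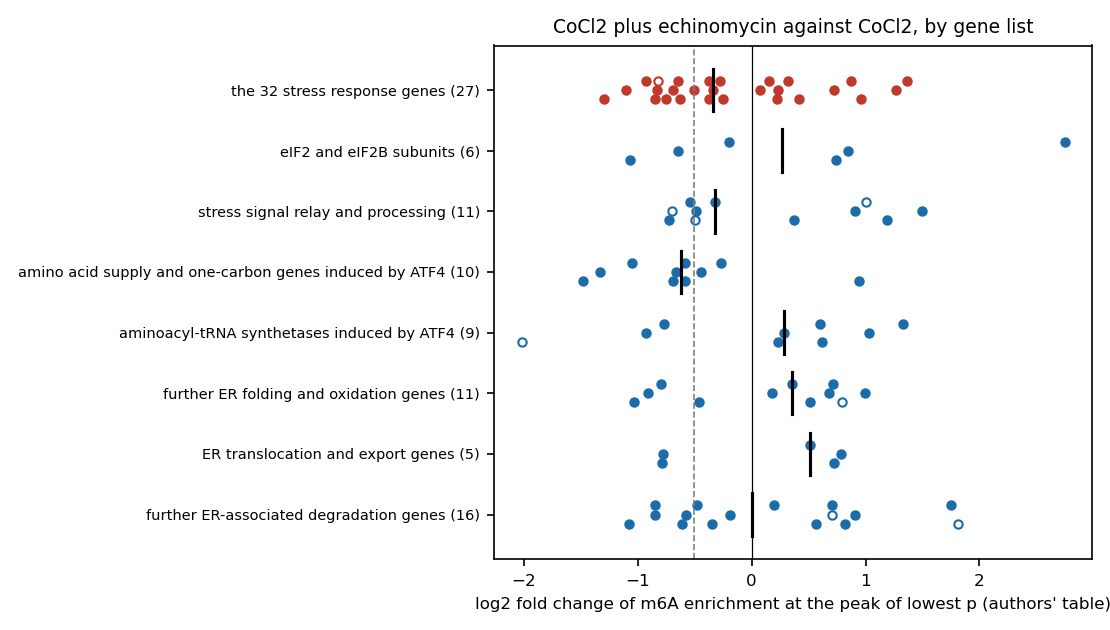
Log2 fold change at the peak of lowest p for each tested gene of the 32 (red) and of 7 other pathway lists (blue), from the authors' deposited table; black bars are medians, open points missed the FDR of 0.05 and the dashed line is the median of all tested genes, -0.50. The list of amino acid supply genes, which also holds ATF3, DDIT4 and STC2, lies mostly to the left of 0, with its median at -0.62.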

How the data were processed

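The authors deposited FPKM per gene and library, a peak list with a fold enrichment ratio and a p-value per peak, and a differential table with a log2 fold change and a p-value per peak. Log10 values of p and FDR in the deposited tables were read as a score, since some are minus infinity. The tools listed, per the submitters' processing notes, are HISAT2, fastp, ChIPseeker and HOMER, without versions or roles. The sources used here do not give the peak caller, differential caller, build, annotation or how replicates were combined, and 6 other per-sample columns were not used.

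The build was settled from the files: the 5′ end of the gene equals a RefSeq GRCh38.p14 start to the base for 36.9% of 14361 genes compared. The direction follows the order in the table's name. Listed peaks overlapped 4 of 49 differential peaks between -8 and -4 on the log2 scale, and 68 of 68 between 4 and 10. Repeated lines, 16 in the peak list and 4 in the differential table, were counted once. No test was run here: calls are the authors' FDR under 0.05. Functions for overlap, motif search and intervals were tested on simulated data. All members may be named; from other pathway lists the highest and lowest changed gene and the most abundant were named. Members and lists were chosen with earlier results of these data known. Software was Python 3.11.15 with matplotlib 3.10.9, scipy 1.17.1, pandas 2.3.3 and numpy 2.4.6.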

Additional observations from a re-analysis of the deposited data

How the results depend on the processing

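Of 60 alternative values 51 were labelled as kept. Counts were kept when close to their main value, and medians when within their spread. A gene's mean over its peaks was kept by its sign alone. This holds small means, as EIF2AK3 from -0.374 to -0.0115 and PPP1R15B from -0.692 to -0.074 in the authors' deposited table. The median log2 level was 3.84 with a pseudocount of 0.1 FPKM and 4.05 over genes at 1 FPKM or more, and 3.90 to 3.95 when each replicate was left out. Leaving out a replicate gave 30 expressed genes, each with a peak, every time. The median fold enrichment was 5.715 with the highest peak of each gene, which by construction raises it. A 2-fold limit left 7 changed peaks in the authors' deposited table, 3 higher and 4 lower. ATF6 turned to 0.47 at its peak of highest absolute change, which missed the FDR, and to 0.11 as a mean over its peaks in the authors' deposited table. CANX turned to -1.14 and -0.51 in the same order in the authors' deposited table. The alternative without peaks mostly outside the gene's row was chosen after seeing the data. No paired analysis was possible because IP values per replicate were not among the columns used here, so the replicate block was not run. Depth is unknown from FPKM.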

Other observations

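CD3D, a T cell receptor gene, was at 29.7, 34.3 and 32.4 FPKM in the 3 inputs, while CD3E was at 0.154, 0.264 and 0.124 FPKM. EPCAM, an epithelial adhesion gene, was at 8.82, 8.63 and 8.92 FPKM, with KRT19 at 0, 0.0774 and 0.152 FPKM. These genes were read only as a check of the labelled cell type.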
